A study of Homo sapiens with 6 samples.

Results

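Rab GTPases are the largest branch of the small GTPases that direct membrane traffic. The family was taken as every protein-coding row of the gene count table whose name is RAB, a number and at most 1 letter. This rule found 63 of the 58735 genes in the table. Names of other forms, such as RABL2B, fall outside the rule. After the filter on low counts 52 of the 63 remained among 16591 genes tested. A further 3 (RAB19, RAB39A and RAB3C) had 0 counts in all 6 libraries, and 8 had counts too low to test (RAB25, RAB33A, RAB37, RAB41, RAB42, RAB6B, RAB6C and RAB6D).

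Messenger RNA was sequenced from RPE-1 cells, an established human retinal pigment epithelial line. The cells expressed CETN2, a centriole protein, as a GFP fusion and held PLK4, the kinase that starts centriole duplication, behind an rtTA-dependent promoter that responds to doxycycline. In the 3 siSON libraries the cells had been given an siRNA against SON, a nuclear speckle protein needed for efficient splicing of many transcripts, and in the 3 siControl libraries a scramble siRNA. Doxycycline at 1 µg/mL had induced PLK4 in both groups, so neither is an uninduced control. Knockdown by siRNA is partial, and nothing in the labels says that same-group libraries came from separate cultures, so the p-values measure the spread between these samples, which may be technical.

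A Rab protein is a switch. Bound to GTP it sits on 1 kind of membrane and recruits effectors such as tethers, motors and coat adaptors, and bound to GDP it is taken off the membrane by a GDP dissociation inhibitor. Exchange factors load GTP, and prenyl groups on cysteines at the carboxy terminus anchor the protein. Different Rab proteins mark the endoplasmic reticulum, the Golgi, early, recycling and late endosomes, secretory vesicles and the cilium. Many exist as related A and B forms.

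Library totals ran from 54572365 to 69764836 counts, and 3 counts, the smallest level taken as visible, were 0.0402 to 0.059 CPM (counts relative to library size, after TMM, the adjustment of edgeR for library composition). This floor covers counting error only. SON itself was at 284 to 313 CPM in siControl and 65.0 to 69.96 CPM in siSON, the groups well apart (log2 fold change -2.14, edgeR adjusted p 6.78e-10). PLK4 was lower in siSON (-0.36) and CETN2 higher (0.38). Of 8 markers of the retinal pigment epithelium, TYR was at 0 in every library and RPE65, RLBP1 and TYRP1 were at or near 0, while MITF, OTX2, BEST1 and PMEL were at 1 CPM or more in siControl. The 8 summed to 51.1 to 52.9 CPM in siControl and 74.0 to 83.3 CPM in siSON, though PMEL fell from 2.07 to 0.201 CPM (log2 fold change -3.36) and RPE65 went from 0.144 CPM to 0. Of 6 markers of other cell types, CD3E and MYH6 were at 0 and ALB near 0, and the 6 summed to 2.23 to 3.27 CPM in siControl and 0.531 to 1.21 CPM in siSON. Most of that was PTPRC (1.44 to 0.292 CPM) and PECAM1 (1.14 to 0.520 CPM), and the part of these shifts in the Rab results was not tested. In bulk libraries such as these, fewer cells with a transcript and less of it per cell cannot be told apart.

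Most expressed Rab genes changed after SON knockdown, in both directions. Of the 52 tested, 42 passed an adjusted p under 0.05 (80.8%), where 71.7% of all genes tested and 77.4% of protein-coding genes did. Of these 42, 22 were higher in siSON (35.2% of all genes were called higher) and 20 were lower (36.5% of all genes were called lower). The shares of called members are thus near those of the whole table. The median log2 fold change was 0.04 over the 52 and -0.03 over all genes tested, and the members ran from -6.26 (RAB26) to 1.6 (RAB1A). At least 2-fold changes were called for 3 members that were higher (RAB1A, RAB43 and RAB8B) and 7 that were lower (RAB26, RAB44, RAB36, RAB39B, RAB28, RAB33B and RAB4B). Of all 16591 genes tested 29.3% passed that size in either direction, 1447 higher and 3406 lower, so the whole table also leans to large falls. The 2 groups of libraries did not overlap for 43 of the 52, against 75.1% of all genes tested. With libraries scaled by their totals alone the median of all genes shifted from -0.03 to -0.22 and that of the members from 0.04 to -0.16, and the called members split into 16 higher and 26 lower. With cyclic loess scaling the split was 17 and 17. Where those scalings change a member's call or sign, their values stand beside it below.

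**Figure D1:**
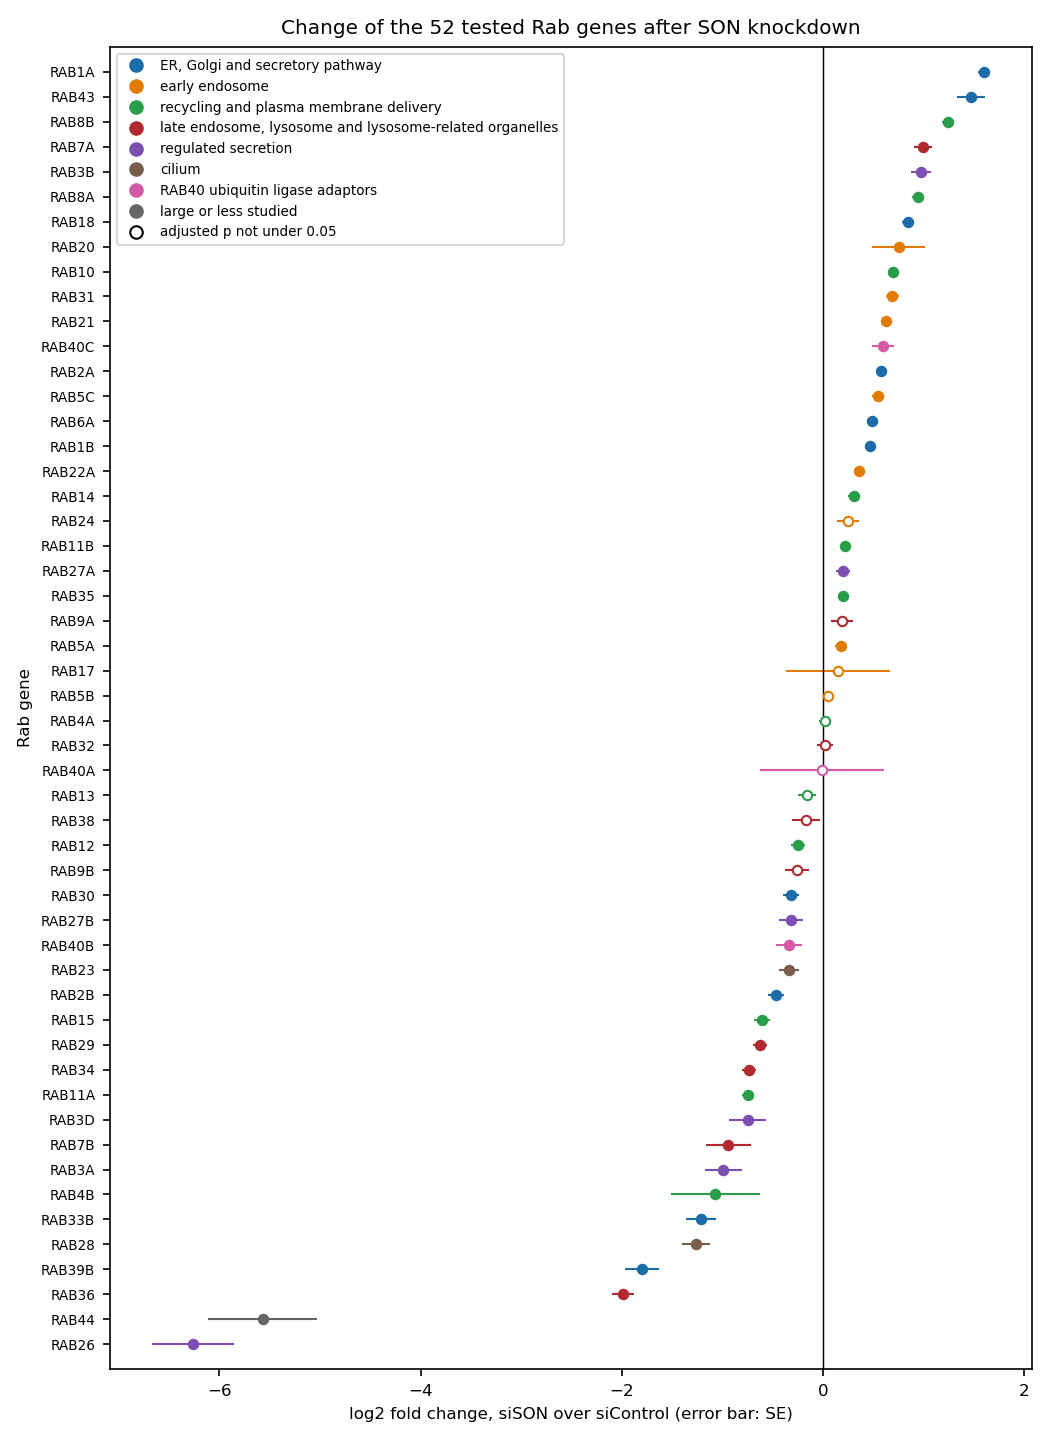
Log2 fold change (siSON over siControl, x axis) with its standard error for the 52 tested Rab genes (y axis), coloured by the compartment they serve; open circles missed an adjusted p of 0.05. The order runs from RAB26 at -6.26 to RAB1A at 1.6, and the early endosome members lie at or above 0.05, though RAB5A and RAB5B turn negative with library totals or cyclic loess and RAB17 with library totals.

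The family as a whole took a larger part of the counts after SON knockdown. Rab genes held 0.338, 0.346 and 0.345% of all counts in the siControl libraries and 0.407, 0.399 and 0.408% in the siSON libraries, which did not overlap and need no scaling between libraries. In TMM-scaled units the 63 genes summed to 3183 to 3221 CPM and 4225 to 4402 CPM. Per kilobase of exon the family's sum rose from 851 ± 3.62 to 1150 ± 36.4 (SD, n = 3 each), 1.36 times the siControl level, and it was 1.27 times that level without RAB7A. The 6 genes RAB7A, RAB1A, RAB3B, RAB1B, RAB10 and RAB8A, made up 63.5% of the CPM gained by the members whose mean was higher. The largest losses in CPM were those of RAB11A (53.1), RAB34 (40.3), RAB29 (29.4) and RAB36 (10.4). The 5 members with the most counts in each library held 34.7 to 35.4% of the family's CPM in siControl and 39.8 to 41.9% in siSON.

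In siControl the highest levels per kilobase of exon were those of RAB1B (132 CPM per kilobase), RAB7A (107), RAB5B (42.0), RAB32 (41.9), RAB10 (40.2) and RAB11B (37.7). From RAB5B on, neighbours in this order lay within the spread of the libraries. Of these 6, RAB5B and RAB32 were not called changed. RAB32, a Rab of melanosomes and other lysosome-related organelles, was at 54.7, 47.0 and 51.4 CPM in siControl and 55.02, 47.5 and 52.7 CPM in siSON. These groups overlap almost fully (log2 fold change 0.02, SE 0.08, edgeR adjusted p 0.826), and with scaling by library totals alone the value was -0.18 (adjusted p 0.0485), and with cyclic loess -0.12.

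The Rab genes of the endoplasmic reticulum, the Golgi and the secretory pathway were the role group with the highest median, 0.48 over 10 tested members. All 10 were called, 6 higher and 4 lower; this and the counts by role that follow are to be read beside the 71.7% of all genes called, 35.2% higher and 36.5% lower. RAB1A, which acts with RAB1B in transport from the endoplasmic reticulum to the Golgi, had the largest rise of the family. It was at 97.8, 88.0 and 88.7 CPM in siControl and 286, 279 and 269 CPM in siSON (log2 fold change 1.6, SE 0.06, edgeR adjusted p 2.78e-09). The lowest siSON library thus lay far above the highest siControl library. RAB1A (ENSG00000138069, chr2:65070696-65130331, minus strand) shares exonic sequence with CEP68 on the other strand, and the strand setting of the counting is not given in the sources used here. RAB18, linked to the endoplasmic reticulum and lipid droplets, rose from 54.7 to 57.1 CPM over the siControl libraries to 97.3 to 105 CPM over the siSON libraries (log2 fold change 0.84, edgeR adjusted p 1.44e-07). RAB6A, which acts in transport at the Golgi, rose by 0.49 on the log2 scale, between means of 143 ± 5.24 and 200.3 ± 4.90 CPM (SD, n = 3). RAB43, also a Golgi-linked Rab, was low, at 1.85 to 2.20 CPM in siControl and 5.26 to 5.98 CPM in siSON (log2 fold change 1.47, SE 0.14, edgeR adjusted p 2.03e-06). Its exons overlap those of the readthrough gene ISY1-RAB43 on the same strand, so reads of both may be mixed in its count.

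Of the 4 that fell in this role group, 2 fell at least 2-fold. RAB39B, a neuron-associated Rab, was at 2.97, 2.91 and 2.92 CPM in siControl and 0.844, 0.776 and 0.905 CPM in siSON, 28.8% of the siControl mean (log2 fold change -1.80, SE 0.17, edgeR adjusted p 2.62e-06). RAB33B, which binds the autophagy factor ATG16L1, was at 9.90, 14.6 and 13.2 CPM in siControl and 4.65, 5.70 and 5.96 CPM in siSON (log2 fold change -1.21, SE 0.15). The siControl spread was wide, yet every siSON library lay under every siControl library for both genes. RAB30 (log2 fold change -0.32) and RAB2B (-0.47) fell less.

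Of the 9 Rab genes of the early endosome, 6 were called higher, none lower and 3 were not called, with a median of 0.36. Roles were assigned with earlier results of these data known, so the absence of members called lower is a description of this list alone. RAB4A and RAB4B (-1.07) were placed under recycling. With library totals or cyclic loess RAB5B was called lower. RAB31 (log2 fold change 0.69), RAB21 (0.63), which binds integrins, and RAB22A (0.36) rose with groups apart; the call of RAB22A was lost with cyclic loess scaling (0.12, edgeR adjusted p 0.0559). RAB20 was at 1.20, 1.75 and 1.23 CPM in siControl and 3.08, 1.53 and 2.36 CPM in siSON. It was the 1 called member whose groups overlap (log2 fold change 0.75, SE 0.26, edgeR adjusted p 0.0241), and its call was lost without siControl replicate 1 (adjusted p 0.0799), siControl replicate 3 (0.0806) or siSON replicate 1 (0.103), and with library totals (0.0849). RAB24 (log2 fold change 0.25, edgeR adjusted p 0.0683), an autophagy-linked Rab whose exons overlap MXD3 on the same strand, did not pass, but did without siSON replicate 3 (0.33, adjusted p 0.031) and with cyclic loess (0.52), and was at 0.05 with library totals. RAB17, at 0.192 and 0.214 CPM, did not pass (0.15, edgeR adjusted p 0.808; -0.05 with library totals and 0.76 with cyclic loess). RAB5A, RAB5B and RAB5C are described with the pairs.

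The Rab genes of recycling and delivery to the plasma membrane had 12 tested members, 6 called higher, 4 lower and 2 not called, with a median of 0.11. RAB10, which acts in delivery of vesicles to the plasma membrane, was at 138, 149 and 151 CPM in siControl and 242, 235 and 234 CPM in siSON (log2 fold change 0.70, SE 0.05, edgeR adjusted p 3.71e-07). Its groups were well apart. RAB14 (log2 fold change 0.31) and RAB35 (0.20), both of endosomal recycling, were called higher, but neither was called with scaling by library totals (0.11 and 0.00) or with cyclic loess (0.03 and -0.08, the latter a reversed sign). RAB15 (-0.61) and RAB12 (-0.25) fell. RAB13, of tight junctions, was not called (-0.16, edgeR adjusted p 0.126), and passed with the replicate number as a block (-0.16, adjusted p 0.0491), with scaling by library totals (-0.36) and without siSON replicate 1 (-0.23, adjusted p 0.0203).

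Late endosome and lysosome Rab genes had 9 tested members, of which 1 was called higher, 4 lower and 4 not called, with a median of -0.26. RAB7A, the main Rab of late endosomes and lysosomes, was the 1 that rose and had the highest level per kilobase of the family in siSON (212 CPM per kilobase). The 3 siControl libraries had 321, 277 and 272 CPM, and the 3 siSON libraries 663, 521 and 545 CPM. The groups were apart although siSON replicate 1 stood above the other siSON libraries (log2 fold change 0.99, SE 0.09, edgeR adjusted p 4.57e-06), and the log2 fold change was 0.89 without that library. RAB36 fell to 25.2% of its siControl mean, from 12.4, 14.4 and 14.8 CPM to 3.58, 3.32 and 3.54 CPM (log2 fold change -1.99, SE 0.11, edgeR adjusted p 3.84e-08). RAB34, which like RAB36 binds the lysosome-positioning effector RILP and also acts in cilium formation, fell by 0.74 on the log2 scale, between means of 101 ± 1.45 and 60.3 ± 4.89 CPM (SD, n = 3). RAB29, which recruits the kinase LRRK2 to membranes, fell from 83.0 ± 3.35 to 53.7 ± 4.52 CPM (log2 fold change -0.63). RAB38, a partner of RAB32 in pigment granules, did not pass (-0.17, edgeR adjusted p 0.301) and passed with scaling by library totals alone (-0.37), and its sign turned with cyclic loess (0.18).

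Regulated secretion Rab genes had 6 tested members, 2 called higher and 4 lower, with a median of -0.53. RAB26, a Rab of secretory granules and synaptic vesicles, had the largest fall of the family. It was at 2.55, 2.47 and 2.62 CPM in siControl and 0, 0.0582 and 0.0394 CPM in siSON (log2 fold change -6.26, SE 0.41, edgeR adjusted p 1.3e-07). Over the 3 libraries of each group this was 531 counts against 5, so that siSON held 1.22% of the siControl level, with a 95% exact binomial interval of 0.395 to 2.87% that covers counting error only. The siSON level of replicate 1 was 0 and that of the other two lay at or under the floor of 3 counts. RAB44, an unusually large Rab, also fell, with 204 counts against 3, or 1.91% of the siControl level (interval 0.390 to 5.65%). Its values were 0.817, 1.02 and 1.10 CPM in siControl and 0.0345, 0 and 0.0197 CPM in siSON (log2 fold change -5.57, SE 0.54, edgeR adjusted p 2.93e-06). The fitted fold changes of both genes depend on the prior count used for values near 0. With cyclic loess they were -4.88 for RAB26 and -3.74 for RAB44. Without siSON replicate 1 they were -5.64 and -6.37, and without siSON replicate 2 -6.96 and -5.04.

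The Rab genes grouped under the cilium, RAB28 and RAB23, fell. Other members with a cilium role were placed in other groups and split. RAB8A (0.94) and RAB8B (1.24) rose, and RAB34 (-0.74) and RAB11A (-0.75) fell. RAB28, which reaches the cilium with the BBSome, was at 12.5, 15.5 and 15.2 CPM in siControl and 7.20, 5.45 and 5.27 CPM in siSON, 41.7% of the siControl mean (log2 fold change -1.26, SE 0.14, edgeR adjusted p 7.66e-06). RAB23, a negative regulator of Hedgehog signalling, was at 44.5 to 44.8 CPM in siControl and 28.9 to 40.0 CPM in siSON (log2 fold change -0.34, SE 0.10, edgeR adjusted p 0.0118). Groups were apart for both, with siSON replicate 1 the lowest of RAB23 and the highest of its group for RAB28.

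Genes of the same number and a different letter were then compared within each library, where the ratio of the 2 counts is the same under any scaling by 1 factor per library. Cyclic loess, which scales by level, can move it, and was added as an alternative after seeing the data. Among tested members there were 17 such pairs, in which genes with more than 2 letters recur. For 14 of the 17 the 3 siSON ratios did not overlap the 3 siControl ratios; the exceptions were RAB3A with RAB3D, RAB40A with RAB40B and RAB40A with RAB40C. Single genes did not overlap in 75.1% of all genes tested, and the share among gene pairs at large was not computed. A 2-sided exact permutation test of 3 libraries against 3 cannot go below 0.1, and it gave 0.1 for each of the 14 (0.121 adjusted over the 17 pairs), so none could pass 0.05. In 7 pairs both members were called in opposite directions, in 4 both were called in the same direction, and in 6 the ratio changed at least 2-fold. Of all genes tested 35.2% were called higher and 36.5% lower, and these counts were not computed for gene pairs at large. Among the opposite pairs, RAB11A/RAB11B and RAB27A/RAB27B lost a call with library totals. With cyclic loess these and also RAB3B/RAB3D and RAB40B/RAB40C lost a call. RAB5B/RAB5C became opposite under both scalings. With cyclic loess all 17 kept their direction, but RAB2A/RAB2B (0.79 on the log2 scale) and RAB4A/RAB4B (0.21) fell below 2-fold.

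**Figure D2:**
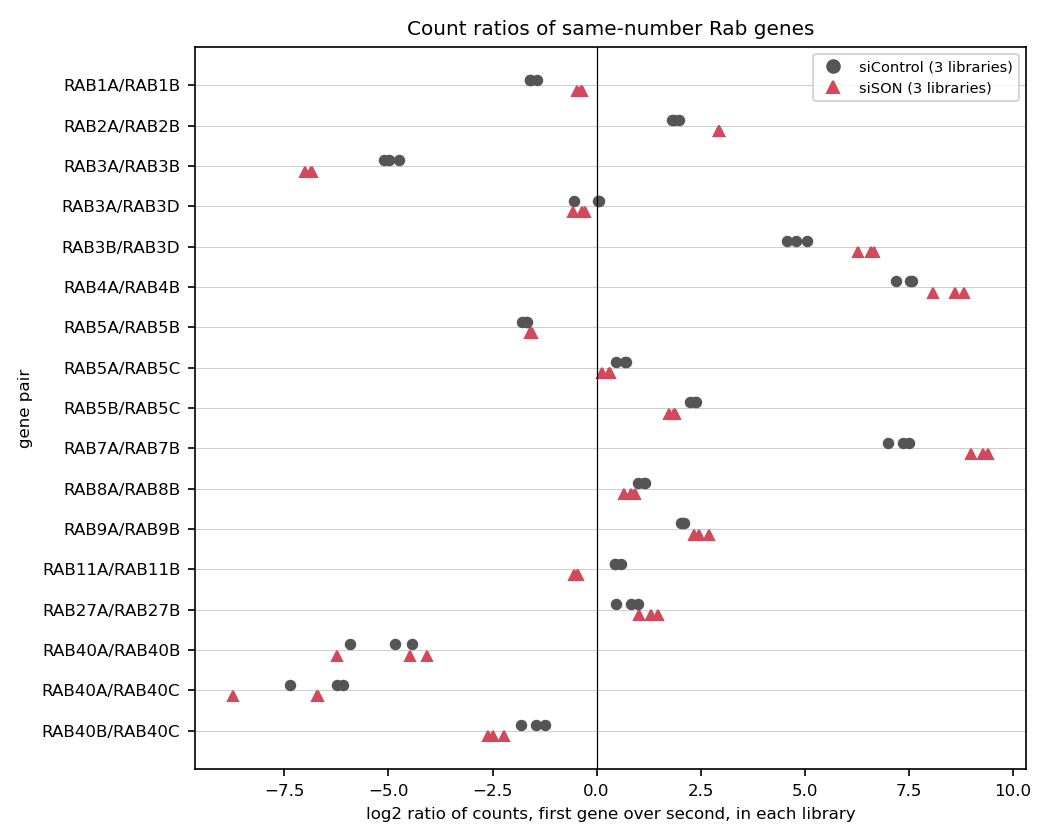
Log2 ratio of counts, first gene over second (x axis), for the 17 pairs of same-number Rab genes (y axis) in each siControl library (grey circles) and siSON library (red triangles). The symbols of the groups separate for 14 pairs, and RAB11A/RAB11B passes from above 0 (a log2 ratio of 0.43 to 0.59) to below 0 (-0.54 to -0.44).

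Coding sequences of RAB1, RAB11, RAB8 and RAB7 are printed to show how far the A and B forms match in the protein and in the transcript that was counted. RAB3A/RAB3B, with the largest ratio change of the 17 pairs (-1.96 on the log2 scale), is not shown. The sequences come from GENCODE release 29 on GRCh38. The coding strand is written 5′ to 3′, the last 48 bases with the stop codon, and capitals mark the cysteine codons of the tail that is prenylated.
RAB1A: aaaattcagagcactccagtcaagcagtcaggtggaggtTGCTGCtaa
RAB1B: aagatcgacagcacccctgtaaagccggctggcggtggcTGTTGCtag
RAB11A: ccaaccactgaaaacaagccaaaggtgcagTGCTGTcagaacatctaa
RAB11B: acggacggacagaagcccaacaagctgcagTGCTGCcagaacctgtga
RAB8A: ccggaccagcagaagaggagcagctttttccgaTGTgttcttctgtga
RAB8B: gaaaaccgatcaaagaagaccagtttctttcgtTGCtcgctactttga
RAB7A: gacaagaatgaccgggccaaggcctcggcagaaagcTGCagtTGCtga
RAB7B: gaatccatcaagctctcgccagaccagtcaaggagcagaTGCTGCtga
These lie in the last exon of each transcript: RAB1A at chr2:65088493-65088540 (minus strand), RAB1B at chr11:66276191-66276238 (plus), RAB11A at chr15:65887793-65887840 (plus), RAB11B at chr19:8403511-8403558 (plus), RAB8A at chr19:16132257-16132304 (plus), RAB8B at chr15:63263572-63263619 (plus), RAB7A at chr3:128813375-128813422 (plus) and RAB7B at chr1:205978851-205978898 (minus). RAB1 and RAB7B end in a pair of adjacent cysteine codons directly before the stop codon, RAB7A in a pair with a codon between, RAB11 in a pair followed by 3 codons, and RAB8 in a single cysteine codon followed by 3 codons. Over these 48 bases RAB1A and RAB1B differ at 15 bases and 3 amino acids, and RAB11A and RAB11B at 21 bases and 9 amino acids. RAB8A and RAB8B differ at 21 bases and 7 amino acids, and RAB7A and RAB7B at 26 bases and 13 amino acids.

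The stretch that binds the phosphates of GTP, the P-loop, is shown for RAB1 and RAB11, where the amino acids of the window are the same in both forms. Over the same window RAB8A and RAB8B differ in 1 amino acid and RAB7A and RAB7B in 6. In the next lines capitals mark the 8 codons of that loop.
RAB1A: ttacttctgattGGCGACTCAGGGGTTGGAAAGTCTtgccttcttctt
RAB1B: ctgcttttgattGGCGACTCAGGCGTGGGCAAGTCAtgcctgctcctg
RAB11A: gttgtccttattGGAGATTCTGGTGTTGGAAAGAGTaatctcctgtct
RAB11B: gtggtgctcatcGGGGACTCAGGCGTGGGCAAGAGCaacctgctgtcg
RAB1A lies at chr2:65104743-65104790 (minus strand) and RAB1B at chr11:66271813-66271860 (plus), each within exon 2, while the RAB11A and RAB11B windows join exons 1 and 2 across an intron, between chr15:65869625-65877378 and chr19:8390456-8399909 (both plus). RAB1A and RAB1B differ at 10 of the 48 bases, 8 of them at the last base of a codon, and code for the same amino acids throughout. RAB11A and RAB11B differ at 14, all of them at the last base of a codon, also with no amino acid changed. Over the whole coding sequence RAB1A and RAB1B match at 93.5% of residues but 76.4% of bases. The longest identical run between any of their annotated transcripts, untranslated parts included, is 16 bases. RAB11A and RAB11B match at 92.1% of residues and 73.1% of bases of the coding sequence, with a longest run of 36 bases between transcripts. The B forms end more of their codons in G or C, 76.2% in RAB1B against 41.3% in RAB1A and 87.7% in RAB11B against 35.5% in RAB11A. How reads that map to several places were counted is not given in the sources used here. Among the 17 pairs the longest identical run between annotated transcripts was 55 bases, in RAB40B and RAB40C.

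RAB1A and RAB1B both rose, RAB1A by more. RAB1B (ENSG00000174903, chr11:66268533-66277492, plus strand) was at 262, 267 and 267 CPM in siControl and 366, 363 and 372 CPM in siSON (log2 fold change 0.47, SE 0.04, edgeR adjusted p 2.47e-06). The count ratio of RAB1A to RAB1B was 0.373, 0.330 and 0.332 in siControl and 0.783, 0.769 and 0.723 in siSON, a 2.2-fold change with no overlap. The summed level per kilobase of the pair went from 160 ± 0.304 to 267 ± 1.84 CPM per kilobase (SD, n = 3 each), and the part of RAB1A in it from 17.3 ± 1.00% to 31.5 ± 0.898%.

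RAB11A and RAB11B moved in opposite directions. RAB11A (ENSG00000103769, chr15:65726054-65891991, plus strand), the broadly expressed Rab of recycling endosomes, which also acts at the base of the cilium, was at 122, 134 and 136 CPM in siControl and 75.7, 77.1 and 79.9 CPM in siSON. The groups were far apart (log2 fold change -0.75, SE 0.06, edgeR adjusted p 4.99e-07). RAB11B (ENSG00000185236, chr19:8389981-8404434, plus strand), which shares exonic sequence with RAB11B-AS1 on the other strand, was at 90.4, 98.5 and 90.5 CPM in siControl and 110.2, 108 and 109 CPM in siSON (log2 fold change 0.22, SE 0.05, edgeR adjusted p 0.00335). Its rise depends on the scaling: the log2 fold change was 0.03 with library totals alone and -0.02, a reversed sign, with cyclic loess. The ratio of RAB11A to RAB11B changed by -0.98 on the log2 scale, also with cyclic loess, and went from 1.35, 1.36 and 1.5 to 0.687, 0.717 and 0.735. RAB11A thus had more counts than RAB11B in each siControl library and fewer in each siSON library, while per kilobase of exon RAB11B was the higher of the pair in both groups (RAB11A held 37.9 ± 1.43% and then 23.7 ± 0.604%). Their summed level per kilobase was 60.7 ± 2.66 and 57.7 ± 0.551 CPM per kilobase, 0.951 times the siControl level. The lowest siControl and the highest siSON library were both at 58.1. These sums are TMM-scaled, and sums with the other scalings were not computed.

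RAB8A and RAB8B, which act in delivery to the plasma membrane and the growing cilium, rose together. RAB8A was at 81.4, 82.3 and 77.6 CPM in siControl and 160.2, 147 and 157 CPM in siSON (log2 fold change 0.94, SE 0.06, edgeR adjusted p 6.31e-08); its exons overlap HSH2D on the same strand. RAB8B was at 36.9, 36.9 and 39.2 CPM and then 85.5, 92.5 and 88.2 CPM (log2 fold change 1.24, SE 0.06, edgeR adjusted p 1.54e-08). The pair's summed level per kilobase rose 2.06-fold, from 22.5 to 22.9 CPM per kilobase in siControl to 46.0 to 47.3 in siSON. The ratio of RAB8A to RAB8B fell slightly, from 1.98 to 2.23 down to 1.58 to 1.87, without overlap.

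**Figure D3:**
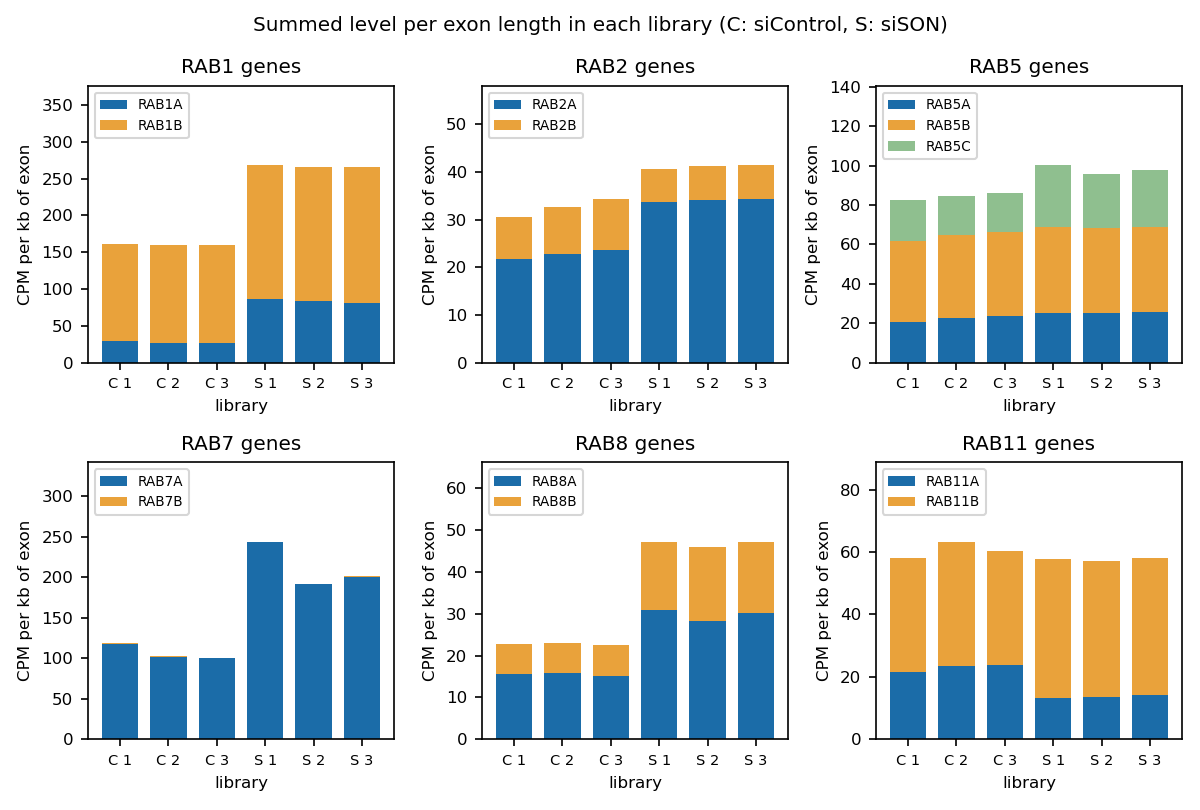
Level per kilobase of exon (CPM per kb, y axis, stacked bars) of the genes of 6 Rab numbers in each library (x axis; C 1 to C 3 siControl, S 1 to S 3 siSON). The RAB8 and RAB7 stacks reach about 2 times their siControl height (2.06 and 1.98). The RAB11 stack is at 58.1 to 63.4 in siControl and 57.1 to 58.1 in siSON, while the RAB11A part shrinks. Levels are TMM-scaled, and the stacks were not computed with the other scalings.

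In 3 further numbers the A form of a pair gained on the B form. RAB2A, of transport between the endoplasmic reticulum and the Golgi, rose from 124, 129 and 134 CPM to 191, 194 and 195 CPM (log2 fold change 0.58), while RAB2B, whose exons overlap TOX4 on the other strand, fell from 31.4, 35.7 and 38.1 CPM to 25.1, 25.3 and 25.4 CPM (-0.47). Their ratio went from 3.52 to 3.93 in siControl to 7.60 to 7.66 in siSON. RAB7B, a Rab of late endosome to Golgi transport that shares 49.2% of residues with RAB7A, was at 1.75, 2.16 and 1.65 CPM in siControl and 1.07, 0.756 and 1.06 CPM in siSON (log2 fold change -0.94, SE 0.22, edgeR adjusted p 0.00241). The ratio of RAB7A to RAB7B changed 3.81-fold, and 2.2-fold with cyclic loess. RAB4A, of fast recycling, was not called (48.3 ± 1.80 and 49.0 ± 0.780 CPM, SD, n = 3 each, edgeR adjusted p 0.758), with a log2 fold change of 0.02 that became -0.18 (adjusted p 0.0225) with library totals alone and -0.11 with cyclic loess. RAB4B was at 0.276 and 0.129 CPM, with 57 counts over siControl and 21 over siSON (log2 fold change -1.07, edgeR adjusted p 0.0467). Its call was lost with the replicate block (-1.07, adjusted p 0.0792), in DESeq2 (adjusted p 0.114), with cyclic loess (-0.32) and when any of the 6 libraries was left out (-1.33 to -0.89), and its exons overlap the readthrough genes MIA-RAB4B and RAB4B-EGLN2.

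The RAB3 genes, of regulated exocytosis, moved apart. RAB3B was at 120.5, 116 and 117 CPM in siControl and 202, 217 and 273 CPM in siSON (log2 fold change 0.97, SE 0.10, edgeR adjusted p 5.69e-06). Its siSON libraries were spread widely, with replicate 3 the highest, but all lay above siControl, and without that replicate the log2 fold change was 0.85. RAB3A, the main form at synapses, fell from 3.78, 3.35 and 4.31 CPM to 1.57, 1.88 and 2.32 CPM (log2 fold change -0.99, edgeR adjusted p 4.22e-04). Its exons overlap MPV17L2 on the other strand. RAB3D, of secretory granules, fell from 3.63, 4.88 and 4.20 CPM to 1.98, 2.77 and 2.81 CPM (log2 fold change -0.75, edgeR adjusted p 0.00264, and -0.39 with adjusted p 0.0728 under cyclic loess); its exons overlap TMEM205 on the same strand. Relative to RAB3B, both fell: the log2 ratio of RAB3A to RAB3B changed by -1.96 and that of RAB3B to RAB3D by 1.71 (-1.29 and 1.06 with cyclic loess), whereas that of RAB3A to RAB3D changed by -0.24 with overlapping groups. Per kilobase RAB3B was the main form of the number in both groups (9.15 and 18.0 CPM per kilobase, against 2.10 and 1.06 for RAB3A).

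The RAB5 genes, the Rab of early endosome fusion, shifted towards RAB5C. RAB5C was at 57.1, 53.8 and 54.3 CPM in siControl and 86.7, 76.7 and 79.1 CPM in siSON (log2 fold change 0.55, SE 0.06, edgeR adjusted p 1.18e-05). RAB5A was at 78.4, 86.0 and 89.2 CPM and then 94.7, 95.1 and 97.0 CPM (0.18, edgeR adjusted p 0.0198). That small rise was lost without siControl replicate 1 (0.10, adjusted p 0.143) or siControl replicate 2 (0.17, adjusted p 0.0795), and its sign turned with library totals (-0.02) and cyclic loess (-0.05). RAB5B, at 269 to 283 CPM in siControl and 284 to 289 CPM in siSON, did not pass (0.05, edgeR adjusted p 0.342), and with library totals and cyclic loess it was -0.15 and -0.30, each past the threshold. The ratios within libraries do not move with library totals, and cyclic loess left them in the same direction (changes of -0.41 and -0.66 on the log2 scale for RAB5A and RAB5B against RAB5C): RAB5A to RAB5C went from 1.37 to 1.64 down to 1.09 to 1.24, and RAB5B to RAB5C from 4.71 to 5.20 down to 3.34 to 3.70. RAB5A to RAB5B moved little, by 0.13 on the log2 scale, with groups that did not overlap.

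The other pairs changed less or rested on low counts. RAB27A, of lysosome-related organelle secretion, was called higher (36.3 to 38.1 CPM, then 38.4 to 44.6 CPM, log2 fold change 0.20, edgeR adjusted p 0.0285) and RAB27B lower (19.0 to 26.4 CPM, then 15.9 to 18.9 CPM, -0.32, adjusted p 0.0345). Both calls are fragile. That of RAB27A was lost when any library but siSON replicate 1 was left out (0.16 to 0.22), with library totals (0.01) and with cyclic loess (0.11), and that of RAB27B without siControl replicate 1 (-0.19), siSON replicate 2 (-0.24) or siSON replicate 3 (-0.32) and with cyclic loess (-0.25). Their ratio went from 1.37 to 2 in siControl to 2.03 to 2.80 in siSON. RAB9A and RAB9B, of late endosome to Golgi transport, were not called (0.19, edgeR adjusted p 0.14, and -0.26, adjusted p 0.0749), yet their ratio did not overlap, at 4.05 to 4.26 and 5.10 to 6.55. That ratio changed by 0.45 on the log2 scale, and by 0.14 with cyclic loess. RAB9A passed with the replicate block (0.20, adjusted p 0.022). RAB9B passed without siControl replicate 2 (-0.35, adjusted p 0.0416) and with library totals (-0.46), and its sign turned with cyclic loess (0.05). The RAB40 genes code for Rab-like adaptors of ubiquitin ligases. RAB40C, whose exons overlap WFIKKN1, rose from 12.1, 16.1 and 14.3 CPM to 20.7, 20.7 and 23.1 CPM (log2 fold change 0.60, edgeR adjusted p 3.70e-04). RAB40B was called lower (-0.34, edgeR adjusted p 0.0359), a call lost without siControl replicate 1 or 3 or siSON replicate 2 or 3 (-0.34 to -0.27), with no count filter (-0.33) and under cyclic loess (-0.01). The ratio of RAB40B to RAB40C went from 0.284 to 0.427 down to 0.165 to 0.213. RAB40A, with 31 counts over siControl and 24 over siSON, did not pass (-0.01, edgeR adjusted p 0.986; -0.21 with library totals and 0.51 with cyclic loess).

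Among the 8 members with counts too low to test, RAB37, a Rab of secretory granules, had 21 counts over the siControl libraries and 0 over the siSON libraries. With 3 counts over the siSON group as the floor, the observed siControl level was 5.4 times that floor. This value takes the siControl counts (5, 4 and 12) as exact, and the change was not tested. RAB42 had 26 and 11 counts, 54.9% of the siControl level with an interval of 24.5 to 115% that includes no change. RAB33A had 14 and 16 counts, RAB6D 13 and 10, RAB6C 6 and 4, RAB41 4 and 0, RAB25 2 and 0, and RAB6B 1 and 2. RAB6C and RAB6D are single-exon relatives of RAB6A, and their reads cannot be told apart from those of RAB6A where the sequences match. For these last 6 genes a change was not detectable at this depth.

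The genes that move Rab proteins on and off membranes also split. Of 8 tested, 3 were called higher and 4 lower, with a median log2 fold change of -0.23 (87.5% called, where 71.7% of all genes were). GDI2, a GDP dissociation inhibitor, rose from 257, 273 and 281 CPM to 420, 418 and 427 CPM (log2 fold change 0.64, edgeR adjusted p 4.34e-07), with the groups far apart. The Rab escort proteins, which present new Rab proteins for prenylation, diverged, CHM being called higher (0.44) and CHML lower (-1.15, from 70.6 ± 3.44 to 31.8 ± 3.04 CPM, SD, n = 3 each). Of the subunits of the prenylating enzyme, RABGGTA was lower (-0.70) and RABGGTB higher (0.25). RABIF, which binds nucleotide-free Rab proteins, was lower (-0.41), and RABAC1, which helps release Rab proteins from GDP dissociation inhibitors, was not called (-0.04, edgeR adjusted p 0.671).

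The proteins that load and read Rab GTPases changed in both directions as well. Of 37 exchange factors tested, 17 were called higher and 13 lower (median 0.06), 81.1% in all, and 82.1% of the effectors were called, both near the 77.4% of protein-coding genes. Among the exchange factors, those with small adjusted p-values included RIN3 (log2 fold change 1.57), an exchange factor of RAB5, DENND1B (1.58), of RAB35, and DENND4B (-1.35). Of 56 effectors, 20 were higher and 26 lower (median -0.27). MICALL2, which binds RAB8 and RAB13, fell from 31.5, 32.9 and 29.1 CPM to 2.17, 1.78 and 1.65 CPM (log2 fold change -4.05, SE 0.12, edgeR adjusted p 8.61e-10). Its relative MICALL1, of recycling endosomes, fell too (-1.55), as did RABEP2 (-1.47), an effector of early endosomes, and GORASP2, a Golgi stacking protein, rose (0.94). Among other small GTPases, 11 of 26 ARF and ARL genes were called higher and 8 lower (73.1% called, median 0.07), with ARFRP1, of the trans-Golgi, lowest in adjusted p (from 31.9 to 3.91 CPM, -3.03). Of 8 Rab-like relatives none was higher and 4 were lower (50% called), among them RABL2B (-0.82).

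Features of the genes that the counts do not use were set beside the changes as a description. Members called higher had a median of 38862 intronic bases and members called lower 21103, while the 10 not called had 16262. Exonic GC content was 43.9% and 49.8%, and 46.5% in those not called. Across the 52 members Spearman's rho of log2 fold change with intronic length was 0.37, and across 13008 protein-coding genes it was 0.23. With the longest transcript alone the values were 0.47 and 0.24. For exonic GC content rho was -0.13 across members and -0.22 across protein-coding genes. These points share their 6 libraries, and genes are not independent replicates. In 12 of the 17 pairs the member with more intronic sequence had the higher log2 fold change, and in 10 the member with lower exonic GC content. RAB1 and RAB11 stand on opposite sides. RAB1A, with 56324 intronic bases against 6953 in RAB1B, rose by more. RAB11A, with 160256 against 11984 in RAB11B, fell while RAB11B did not. These lengths cover all annotated transcripts. With the longest transcript alone they were 40805 for RAB1A against 6953 for RAB1B. For RAB11A and RAB11B they were then 17604 against 12485. The size of the RAB11 length gap thus rests largely on that choice, while its direction does not.

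**Figure D4:**
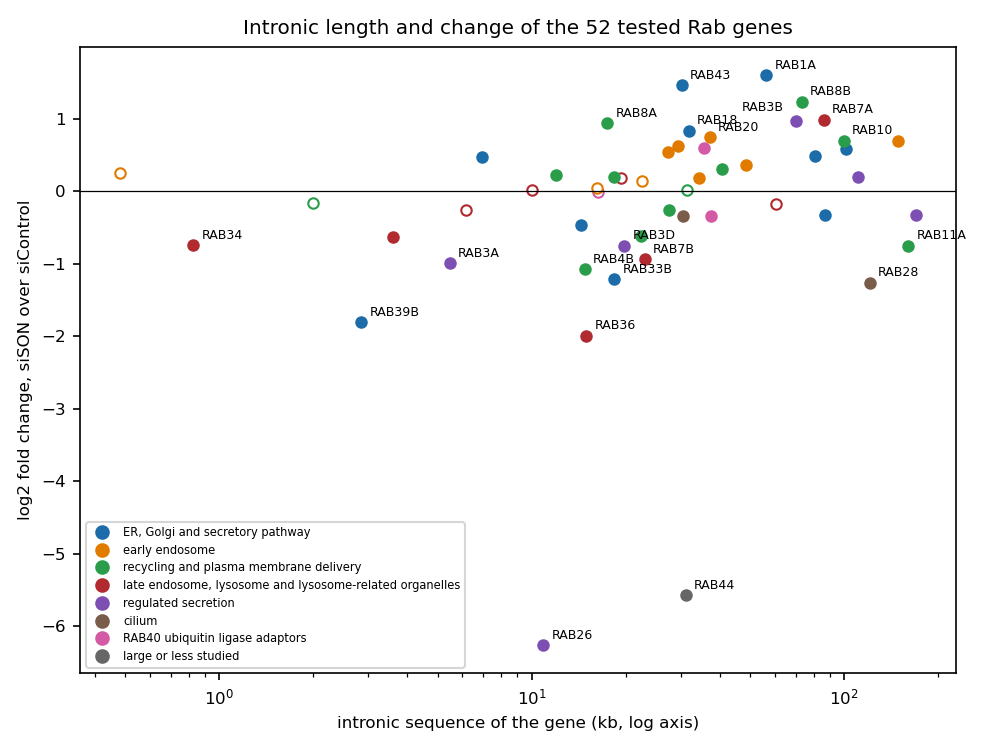
Intronic sequence of each gene (x axis, kilobases, log axis) and log2 fold change, siSON over siControl (y axis), for the 52 tested Rab genes, coloured by compartment; filled circles passed an adjusted p of 0.05 and open circles did not. Spearman's rho across the 52 is 0.37, with RAB11A and RAB28 low at long intronic lengths and RAB26 lowest. Lengths cover all annotated transcripts, and the longest transcript of RAB11A alone has 17604 intronic bases.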

How the data were processed

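The authors deposited a table of raw counts, whole numbers of reads for each gene in each of the 6 libraries. Per the submitters' processing notes, cutadapt 1.16, STAR 2.5.2a, featureCounts 1.6.2 and DESeq2 1.28.1 were used with hg38; strand and multi-mapping settings are not given in the sources used here. All 58735 identifiers matched GENCODE 29, which gave positions, lengths, GC content and sequences. Further members share exonic sequence with other genes. On the same strand these are RAB4A (SPHAR), RAB13 (AL358472.6), RAB27A (PIGBOS1) and RAB5C (AC099811.2). On the other strand they include RAB23 (BAG2) and RAB5A (PP2D1). Reads of both genes may be mixed in such counts.

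Counts were tested in R 4.3.3 with edgeR 4.0.16 (filterByExpr with a minimum count of 10, TMM, robust quasi-likelihood, group alone), adjusted by Benjamini-Hochberg over all 16591 genes; the procedure was tested on simulated data. CPM used TMM-scaled totals. Pairs were compared by log2 count ratios within libraries, with 0.5 added. Alternatives were DESeq2 1.42.0, limma 3.58.1 voom, other scalings and filters, a 1.5-fold test, the replicate block and leaving out each library. Replicates of a group differed beyond counting noise (chi-square per degree of freedom 6.94 to 25.2).

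Members, lists and roles were chosen with earlier results of these data known. Named genes are all letter pairs, the 6 largest rises and falls, the 6 highest per kilobase, SON, PLK4, CETN2, the Rab cycle genes and up to 4 per other list with the smallest adjusted p; other members are given by role group. Some listed genes are not reported here.

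Deviations from group means correlated at 0.323, 0.129 and 0.23 for same-numbered libraries (each over 0.1) and -0.247 to 0.0603 for others. With a prior count of 2 the same-numbered values were 0.194, 0.0461 and 0.118, so whether replicate 2 passes 0.1 depends on the transformation. The titles' numbers may thus mark pairs, and the labels do not say what they stand for. Results are from the fit without the block, and blocked values are given where they change a call. The permutation test of the ratios did not use the numbers either.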

Additional observations from a re-analysis of the deposited data

How the results depend on the processing

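Members called ranged from 34 to 43 over the alternatives, the test against a 1.5-fold change set apart, and from 36 to 41 when 1 library was left out (higher 19 to 22, lower 17 to 20). The same ranges for all genes were 10226 to 12604 and 11153 to 11783. Against a 1.5-fold change 6126 genes and 18 members passed, 9 higher and 9 lower, since that test asks for a larger change. With the replicate number as a block 12313 genes and 43 members passed, and the block changed no member's call other than those of RAB4B, RAB13 and RAB9A.

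Signs turned under scaling by library totals for RAB4A (-0.18), RAB5A (-0.02), RAB5B (-0.15), RAB17 (-0.05) and RAB32 (-0.18), and under cyclic loess for RAB4A (-0.11), RAB5A (-0.05), RAB5B (-0.30), RAB9B (0.05), RAB11B (-0.02), RAB32 (-0.12), RAB35 (-0.08), RAB38 (0.18) and RAB40A (0.51); scaling by totals moves the median of all genes, and the cause under loess was not tested. From the longest transcript alone rho was -0.12 for GC content and 0.47 for intronic length; the cause was not tested. Pairs with ratios that did not overlap numbered 14 to 15. Of the 17 ratio changes, only that of RAB40A to RAB40B changed sign, in 3 of 10 alternatives (-0.29 to 0.79). Cyclic loess, added after seeing the data, moved 5 ratio changes by over 1.5 times in fold terms, to -1.29 (RAB3A/RAB3B), 1.06 (RAB3B/RAB3D), 0.21 (RAB4A/RAB4B), 1.14 (RAB7A/RAB7B) and -0.19 (RAB40A/RAB40C). Small ratio changes also moved by much of their size. These were RAB9A/RAB9B (0.45 to 0.14), RAB40A/RAB40B (0.14 to 0.52) and RAB5A/RAB5B (0.13 to 0.25).

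Depth limits the results for RAB17, RAB40A, RAB4B and the members left untested, whose counts are few.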
